A study of Rattus norvegicus with 12 samples.

Results

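The share of each transcript in the summed FPKM (fragments per kilobase of transcript, scaled to library size) of its gene was compared between 8 libraries of rat heart muscle cells given endothelin-1 (ET-1) or phenylephrine (PE) and 4 given vehicle. All 12 libraries of the series entered the comparison, which was made within the same second compound (JQ1 or DMSO) and replicate number. Genes with 2 or more transcripts of at least 400 nt were eligible, which gave 13032 transcripts of 5221 genes, out of 41078 transcripts of 32883 genes listed. Of these, 5563 transcripts of 2458 genes were tested, because the gene averaged at least 1 FPKM, was above 0 in every library, and the transcript held 5 to 95% of its gene on average.

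The cells were cardiomyocytes from Sprague-Dawley rats 1 to 3 days old, cultured with AraC (cytosine arabinoside, which blocks dividing cells) at 10 µM before treatment. The agonist groups received ET-1 at 100 nM with DMSO, PE at 10 µM with DMSO, ET-1 with JQ1 at 1 µM, or PE with JQ1, and the vehicle groups received acetic acid with DMSO or with JQ1, all for 24 h. JQ1 is a compound that displaces BET proteins from acetylated histones. Each of the 6 groups had 2 libraries. Nothing in the labels ties the pair to different cultures or litters, so each p-value reflects the spread of these libraries alone, and that spread may be technical.

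One gene can give several transcripts by starting at different promoters, by joining different exons and by ending at different sites. The proteins made from them can differ in where they go and what they bind. Tropomyosins, which lie along actin filaments, are a textbook case, since several tropomyosin genes make muscle and cytoskeletal forms from alternative exons. Endothelin and alpha-1 adrenergic receptors both act through Gq proteins and drive cardiomyocyte growth in culture.

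The libraries held 2.341 to 2.965 Gb of aligned bases, of which 0.661 to 0.831 Gb lay in eligible genes. The 7 cardiomyocyte markers were all listed and their summed FPKM was 13900 to 20000 in agonist and 13000 to 22900 in vehicle libraries. Summed fibroblast markers were 323 to 591 FPKM in agonist and 401 to 804 FPKM in vehicle libraries of replicate 1, and 60.7 to 117 FPKM in agonist and 82.3 to 191 FPKM in vehicle libraries of replicate 2. Agonist libraries had 0.594 to 0.981 times the fibroblast sum of their own vehicle library in all 8 differences. Col1a1, Col1a2 and Postn were lower with agonist in all 8. Dcn, Lum, Pdgfra and Tcf21 were higher with PE than with vehicle in both JQ1 replicates, and mostly lower in the other differences. In JQ1 replicate 1, Dcn was at 15.7 FPKM with PE and 11.6 with vehicle. In bulk RNA a change of isoform within cells and a change in the mix of cells cannot be told apart.

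Tpm2, which encodes beta-tropomyosin, was the gene called in the comparison of agonists with vehicle, 1 of 2458 (0.0407%). Its transcript ENSRNOT00000022801 took a larger share of the gene with agonist in all 8 differences, and its partner ENSRNOT00000049000 a smaller one. The share of ENSRNOT00000022801 rose by 18.6 percentage points (SE 0.987), a log2 ratio to the other transcripts of 1.48 (SE 0.12). The adjusted p was 0.0086 by limma with Benjamini-Hochberg adjustment. The count of called genes was 20 in a fit of 6 group means with replicate number as the block and 70 with no filter on low values.

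Both Tpm2 transcripts lie on the minus strand of chromosome 5 in rn6 and have 9 exons each. ENSRNOT00000049000 spans 59016622 to 59025631 and is 1098 nt long, while ENSRNOT00000022801 spans 59017575 to 59025631 and is 1260 nt long. Their starts are 0 nt apart and their ends 953 nt apart, so they differ at the end of the gene. Which protein form each transcript encodes is not given in the files and is not assigned here.

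Because both transcripts share a start, the stretch around the Tpm2 start listed by RefSeq is shown as context for that shared end of the gene. It runs from 250 bases before to 50 after that start at chr5:62575677-62575976, minus strand, on GRCr8, a later build than that of the files, and whether the 2 starts coincide was not tested. Capitals mark a match to CACCC, searched on both strands.
Tpm2: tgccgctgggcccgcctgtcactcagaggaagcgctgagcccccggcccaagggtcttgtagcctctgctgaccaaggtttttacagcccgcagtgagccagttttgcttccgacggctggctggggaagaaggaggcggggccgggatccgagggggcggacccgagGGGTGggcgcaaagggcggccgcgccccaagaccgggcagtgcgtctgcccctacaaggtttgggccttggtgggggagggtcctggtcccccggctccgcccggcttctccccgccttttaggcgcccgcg
This window holds 1 match to CACCC, as 54.9% of 33469 RefSeq windows of this length hold at least 1. It holds 0 matches to CATTCC, which 14.2% of windows hold, 0 to CANNTG, which 72.1% hold, and 0 to the CArG box, which 1.6% hold. These are letter matches only.

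In DMSO replicate 1 the share of Tpm2 ENSRNOT00000022801 was 35.9% with ET-1, 22.9% with PE and 10.5% with vehicle. In DMSO replicate 2 it was 51.6% with ET-1, 41.1% with PE and 25% with vehicle. With JQ1 it was 32.9% with ET-1, 19.7% with PE and 9.77% with vehicle in replicate 1, and 51.5% with ET-1, 35.7% with PE and 26.0% with vehicle in replicate 2. Within every stratum of second compound and replicate number ET-1 was highest, PE in the middle and vehicle lowest, although across strata the ranges overlapped (19.7 to 51.6% with agonists, 9.77 to 26.0% with vehicle). Replicate 2 libraries, which had the lower fibroblast sums, stood above replicate 1 libraries in each group.

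The level of ENSRNOT00000022801 was 188 FPKM with ET-1, 108 with PE and 39.8 with vehicle in DMSO replicate 1, and 207 FPKM with ET-1, 149 with PE and 60.8 with vehicle in DMSO replicate 2. With JQ1 it was 195 FPKM with ET-1, 95 with PE and 43.6 with vehicle in replicate 1, and 259 with ET-1, 125 with PE and 79.2 with vehicle in replicate 2. Each agonist library was 1.58 to 4.72 times its vehicle library. ENSRNOT00000049000 was 335 FPKM with ET-1, 365 with PE and 338 with vehicle in DMSO replicate 1, and 194 with ET-1, 214 with PE and 183 with vehicle in DMSO replicate 2. In JQ1 it was 396 FPKM with ET-1, 387 with PE and 402 with vehicle in replicate 1, and 244 with ET-1, 225 with PE and 225 with vehicle in replicate 2. Each agonist library was 0.961 to 1.17 times its vehicle library for this transcript, so the shift of share went with a higher level of ENSRNOT00000022801. The gene as a whole differed by 0.44 on the log2 scale.

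**Figure D1:**
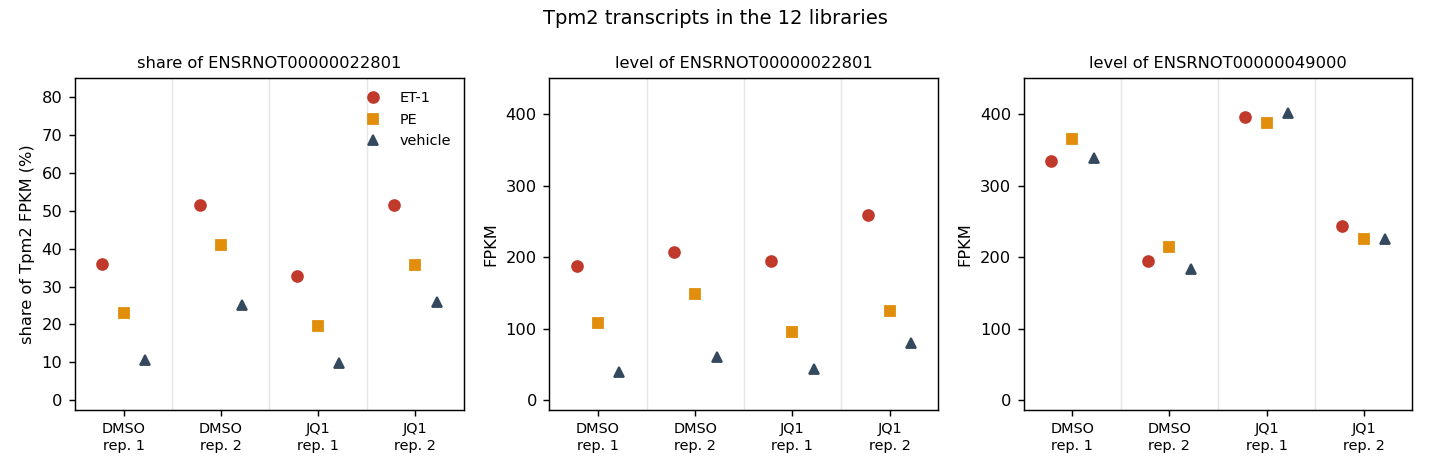
Tpm2 in each of the 12 libraries, with ET-1, PE and vehicle side by side in each stratum of second compound and replicate number. The left panel gives the share of ENSRNOT00000022801 in percent and the others the level of each transcript in FPKM; in all 4 strata the agonist libraries lie above vehicle for ENSRNOT00000022801, while ENSRNOT00000049000 stays within 0.961 to 1.17 times vehicle.

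With ET-1 alone against vehicle, Tpm2 was again the gene called, 1 of 2458 (0.0407%). Its share rose by 25.2 points, a log2 ratio of 1.92 (SE 0.13) with an adjusted p of 0.0039 by limma. This call also depends on the replicate block, without which the adjusted p by limma was 0.49. It was lost too within replicate 1 libraries alone (log2 ratio 2.2) and within replicate 2 libraries alone (1.63). With PE alone, 0 of 2458 genes (0%) were called by limma, and 241 had an unadjusted p under 0.05. The Tpm2 shift with PE was 12 points, a log2 ratio of 1.05 (SE 0.13) with an adjusted p of 0.15. The difference of PE minus ET-1 at Tpm2 was -13.1 points with an adjusted p of 0.42, and 0 genes (0%) were called in that comparison by limma, with 147 at an unadjusted p under 0.05. On the share itself, in percentage points, the same model called Tpm2 for PE against vehicle (adjusted p 0.032) and for PE minus ET-1 (adjusted p 0.017), so both calls depend on the scale. The PE call on the log ratio was also reached without vehicle with JQ1 replicate 2 (adjusted p 0.048). ET-1 and PE share their vehicle libraries and were given at 1 dose each.

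Tpm2 was also called in DMSO alone, where the shift was 20.1 points (adjusted p 0.022 by limma), and in JQ1 alone, where it was 17.1 points (adjusted p 0.039). Both values come from 1 fit to all 12 libraries, which share the estimate of the spread and the replicate term. Leaving out each library in turn, the DMSO call was lost in 8 of 12 fits (adjusted p 0.021 to 0.17) and the JQ1 call in 11 of 12 (0.031 to 0.12). The DMSO call was kept without either ET-1 with DMSO library and without either vehicle with JQ1 library, and the JQ1 call was kept without vehicle with JQ1 replicate 2. Without the block neither was called, and with no filter on low values the adjusted p in JQ1 was 0.061. The difference of the effect in JQ1 minus that in DMSO was -0.18 on the log2 scale (SE 0.23, adjusted p 1.0).

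Each group has both replicate numbers, so the replicate block cannot change the size of the shift, but the call depends on it. Without it the size stayed at 1.48 on the log2 scale but the adjusted p was 0.49, and the call was also lost without PE with DMSO replicate 1 (0.056), PE with DMSO replicate 2 (0.053) or PE with JQ1 replicate 1 (0.061). Within replicate 1 libraries alone the log2 ratio was 1.72 with an adjusted p of 0.15, and within replicate 2 libraries alone the adjusted p was 0.21. Markers of smooth muscle and mural cells, which also make tropomyosins, summed to 1.43 to 2.56 times their level in the matched vehicle library in the 8 differences, with 6 of 6 listed. The sum was carried by Cnn1, and without it the ratio was 1.01 to 1.45. Cnn1 (2.43 to 3.81 times) and Cspg4 (1.08 to 2.31 times) were higher with agonist in all 8 differences, Myh11 was lower in all 8 (0.668 to 0.912 times), and Rgs5, Pdgfrb and Kcnj8 were lower in 7, 6 and 5 of 8. Their part in the Tpm2 shift was not tested. In DMSO replicate 1 Cnn1 (calponin, which binds actin) was at 104 FPKM with ET-1, 119 with PE and 33.4 with vehicle, while Myh11 (smooth muscle myosin) was at 13.5 with ET-1, 13.3 with PE and 20 with vehicle.

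Between single pairs of libraries, agonist differences in share were typically about as large as replicate differences. The replicate pairs cross replicate number, where the fibroblast sums differed, while the agonist pairs lie within it. Over the tested genes the leading transcript's share differed by a median of 3.79 to 4.76 points in the 8 agonist minus vehicle pairs, by 3.7 to 4.03 in the 4 PE minus ET-1 pairs, and by 3.77 to 4.79 in the 6 replicate pairs. A difference of 10 points or more was seen in 26.4 to 32.1% of genes in agonist minus vehicle pairs, 27.7 to 29.8% in PE minus ET-1 pairs and 27.1 to 32.7% in replicate pairs. At an unadjusted p under 0.05 by limma there were 254 genes (10.3%) for agonists against vehicle and 147 (5.98%) for PE against ET-1. In 40 genes (1.63%) a transcript moved one way in all 8 differences and by 10 points or more on average, and in 136 genes (5.53%) one moved one way in all 8 whatever its size.

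**Figure D2:**
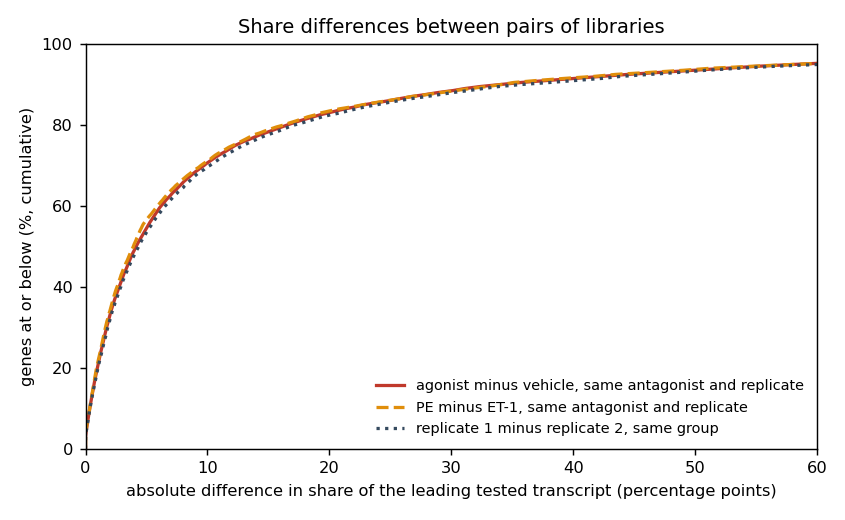
Cumulative share of tested genes against the absolute difference in share of the leading tested transcript, in percentage points, for agonist minus vehicle, PE minus ET-1 and replicate 1 minus replicate 2 pairs. The 3 curves nearly coincide, with medians of 3.79 to 4.76, 3.7 to 4.03 and 3.77 to 4.79 points.

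The tested transcripts are spread over genes whose leading transcripts differ in several ways. The 2 transcripts that moved most shared start and end (within 100 nt) in 6 of the 40 genes, against 340 of 2458 tested genes. They differed in start in 10 of 40 (443 of 2458), in end in 7 (471), in both in 15 (1142), and did not overlap on the genome in 2 (62). Pairs without overlap made up 10.5% of genes at an unadjusted p under 0.01 by limma, against 2.52% of tested genes. In 20 of the 40 genes the transcript that gained share was the longer one and in 20 the shorter. Over all 2458 tested genes it was the longer one in 1159 and the shorter in 1289. The share-weighted transcript length differed by a median of -0.00036 on the log2 scale over 2458 genes (exact permutation p = 0.2, two-sided, 81 arrangements, smallest possible 0.012). No gene had a different leading transcript in all agonist and all vehicle libraries, a count of 0 of 2458 that leaving out a single library moved to between 0 and 2.

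The next genes by p were not called and are described because of their values, chosen after these were seen. Some were called under other settings: Ppip5k1 and Mlec under 5 of 24 (lowest adjusted p 0.026 and 0.02), and Polr2m and Mtus1 under 4 (0.028 and 0.024). With 6 group means Ppip5k1, Mlec, Mtus1, Ppa1 and Gstm7 were called, and with genes of at least 5 FPKM Ppip5k1, Mlec, Polr2m and Mtus1. Mtus1, a microtubule-associated protein gene, had ENSRNOT00000079006 at 14.9 to 29.8% (median 19.3%) with agonists and at 7.94, 10.7, 12.5 and 13.3% with vehicle, which do not overlap. Its shift was 8.9 points (adjusted p 0.057) and the level of the whole gene differed by -0.76 on the log2 scale. Agap3 had ENSRNOT00000087120 at 47.1 to 72.7% (median 62.9%) with agonists and 41.5, 41.0, 44.0 and 45.7% with vehicle, without overlap, a shift of 18.6 points (adjusted p 0.2). Hmgn3, a nucleosome-binding protein gene, had ENSRNOT00000074896 at 14.4 to 21.7% (median 19.1%) with agonists and 25.9, 29.8, 26.2 and 26.3% with vehicle, again without overlap (shift -8.69 points, adjusted p 0.2).

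Epha3, an ephrin receptor, had ENSRNOT00000040065 at 13.2 to 37.7% (median 21.3%) with agonists and 11, 10.9, 14.9 and 20.6% with vehicle. These ranges overlap across strata but each agonist library stood above its vehicle library (shift 8.11 points, adjusted p 0.2). Epha3 is at 3.53 to 12.8 FPKM with agonists and 11.3 to 31.2 with vehicle. Pde4b, a cAMP phosphodiesterase with alternative promoters, had ENSRNOT00000007738 at 31.4 to 54.3% (median 39.6%) with agonists and 20.9, 21.6, 31.7 and 37.8% with vehicle. The shift was 13.7 points (adjusted p 0.24), and the ranges overlap across strata.

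For Ppip5k1, Mlec, Polr2m and Ppa1, which are among the genes that follow Tpm2 by p, the 2 leading transcripts do not overlap on the genome, so the share compares separate units under 1 gene identifier. The gap is 116727 nt in Ppip5k1, 10098 nt in Mlec, 16393 nt in Polr2m and 5820 nt in Ppa1. The 1 transcript that joins them held at most 2.17% of Ppip5k1, 1.59% of Mlec, 1.38% of Polr2m and 1.08% of Ppa1, and the Ppip5k1 gap holds 11 other listed genes. Their shifts were 12.1 points for Ppip5k1 ENSRNOT00000065285 (adjusted p 0.057), -6.57 for Mlec ENSRNOT00000077871 (0.057), -10.4 for Polr2m ENSRNOT00000077999 (0.057) and 6.86 for Ppa1 ENSRNOT00000000674 (0.2). Gstm7, a glutathione transferase gene, is of the same kind, with a gap of 52208 nt that holds 3 other listed genes and a joining transcript at 1.85% or less (shift 3.29 points for ENSRNOT00000025939, adjusted p 0.23). By construction such a share is a ratio of the levels of 2 separate stretches of the genome.

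**Figure D3:**
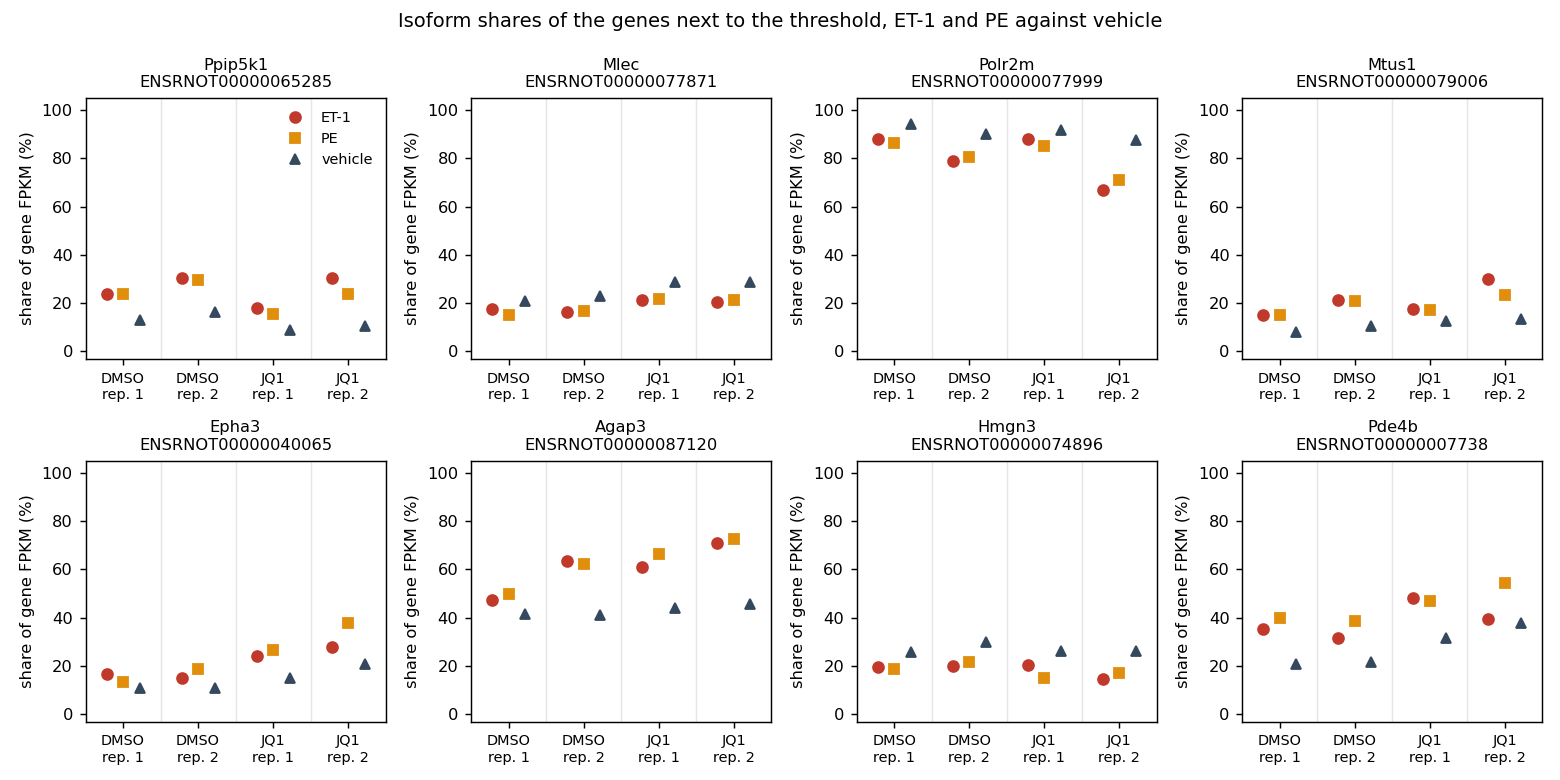
Share of 1 transcript of each of 8 genes next to the threshold in percent, with ET-1, PE and vehicle side by side in each stratum of second compound and replicate number. In each gene both agonist libraries lie on one side of vehicle in all 4 strata; none was called in the fit with 4 strata, while Ppip5k1, Mlec and Mtus1 were called with 6 group means.

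Of 42 sarcomere, Z-disc and excitation genes known for splicing in heart, 29 could be tested and 1, Tpm2, was called. Another 11 had an unadjusted p under 0.05 (12 of 29, 41.4%, against 10.3% of all tested genes and 16.7% of tested genes averaging 50 FPKM or more). The list's median gene level was 102 FPKM, against 11.9 FPKM over all tested genes. The median largest shift in the list was 6.13 points, against 3.7 over all tested genes. Tpm1, the main cardiac tropomyosin gene, had ENSRNOT00000048044 at 87.3 to 96.0% (median 93.5%) with agonists and 75.8, 91.6, 86.0 and 94.2% with vehicle. All 8 differences were upward at 5.13 points on average (adjusted p 0.31), and the ranges overlap. Tpm1 ENSRNOT00000085894, below the filter of 5% on average and so not tested, was lower in all 8 differences. It was at 0.891 to 6.42% with agonists and 1.96 to 11.4% with vehicle. With no filter on low values Tpm1 was among the 4 genes called for PE against vehicle. Lmo7 ENSRNOT00000090727 was at 30.5 to 46.8% with agonists and 36.8, 37.4, 23.7 and 19.5% with vehicle (adjusted p 0.42).

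Among the other lists no gene was called by limma for agonists against vehicle. For splicing regulators 19 genes were tested and 1 had an unadjusted p under 0.05 (Ptbp1, ENSRNOT00000041277 at 21.8 to 44.6% with agonists and 41.4 to 54.5% with vehicle). The numbers were 2 of 16 for genes with alternative promoters or signal-induced short forms (Pde4b, Pde4d), 3 of 8 for signalling (Ednra, Mapk14, Prkd1), 0 of 9 for BET and elongation factors, 1 of 7 for metabolism (Pkm) and 0 of 8 for matrix genes. Among all tested genes the number was 254 of 2458 (10.3%). Pde4b moved one way in all 8 differences, Ptbp1, Ednra, Prkd1 and Pkm in 7, Pde4d in 6 and Mapk14 in 5. Of the always-named genes, Crem, Homer1, Ldb3, Camk2d, Pkm and Mef2a were tested and not called. Rcan1 and Mef2d have 1 listed transcript each and Ttn was not analysed here. The largest mean shift among these, in Crem ENSRNOT00000092187, was -17.3 points with shares of 0.0 to 47.5% with agonists and 30.5 to 49.7% with vehicle (adjusted p 0.67).

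In DMSO alone 9 genes were called (0.366%): Tpm2, Lgals3, Cdc16, Apc, Nudt7, Mapk14, Tmem80, Schip1 and Gstm7, of which Gstm7 compares separate units as above. In JQ1 alone 9 were called (0.366%): Tpm2, Top2b, AABR07035437.1, Suco, Acacb, Arl15, Dync1li2, Saa4 and Lmo7. Tpm2 is the 1 gene in both. In JQ1 not all of these moved with both agonists. Top2b ENSRNOT00000075896 was at 0.959 and 0.795% with PE, 19.4 and 24.1% with ET-1 and 22.9 and 22.6% with vehicle. Saa4 ENSRNOT00000082289 was at 92.3 and 90.6% with PE, 3.54 and 5.26% with ET-1 and 0.0 and 7.68% with vehicle. Dync1li2 ENSRNOT00000076604 was at 62.8 and 61.6% with ET-1, 4.72 and 3.21% with PE and 7.38 and 6.29% with vehicle. Suco, Arl15, AABR07035437.1 and Lmo7 moved one way with both. The Top2b transcripts that moved most over all 12 libraries, ENSRNOT00000076520 and ENSRNOT00000075896, do not overlap on the genome. ENSRNOT00000075125, which overlaps both, held 9.08 to 17.3% with agonists and 9.46 to 11.7% with vehicle. The agonist effect differed between JQ1 and DMSO in 8 genes (0.325%).

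The 5 with the largest called shift in share were Cdc16, Apc, Lgals3, AABR07035437.1 and Mapk14. Lgals3 (galectin-3) ENSRNOT00000082675 was at 0% in all 8 agonist libraries, against 71.7 and 78.2% with vehicle in DMSO and 0% with vehicle in JQ1. Apc ENSRNOT00000027691 was at 9.99 and 16.2% with ET-1 and 14.1 and 11.1% with PE in DMSO, against 97.5 and 96.7% with vehicle in DMSO. In JQ1 it was at 97.7 and 95.1% with ET-1, 84.4 and 96.2% with PE, and 97.0 and 96.7% with vehicle. Mapk14 (p38 kinase) ENSRNOT00000000618 was at 24.3 to 48.7% with agonists against 92.1 and 93.8% with vehicle in DMSO, while in JQ1 all libraries were at 39.0 to 44.9%. AABR07035437.1 ENSRNOT00000089775 was at 0.148 to 0.457% with agonists in JQ1, against 47.0 and 49.7% with vehicle in JQ1, and at 48.7 to 58.8% with agonists in DMSO, against 53.6 and 46.0% with vehicle in DMSO.

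Large jumps were also seen between replicates. In 567 genes (23.1%) a transcript held 5% or less in one library and 50% or more in another, and in 478 of those (84.3%) the replicates of at least 1 group differed by 50 points or more. The part of transcript assembly and of read assignment in such jumps was not tested.

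**Figure D4:**
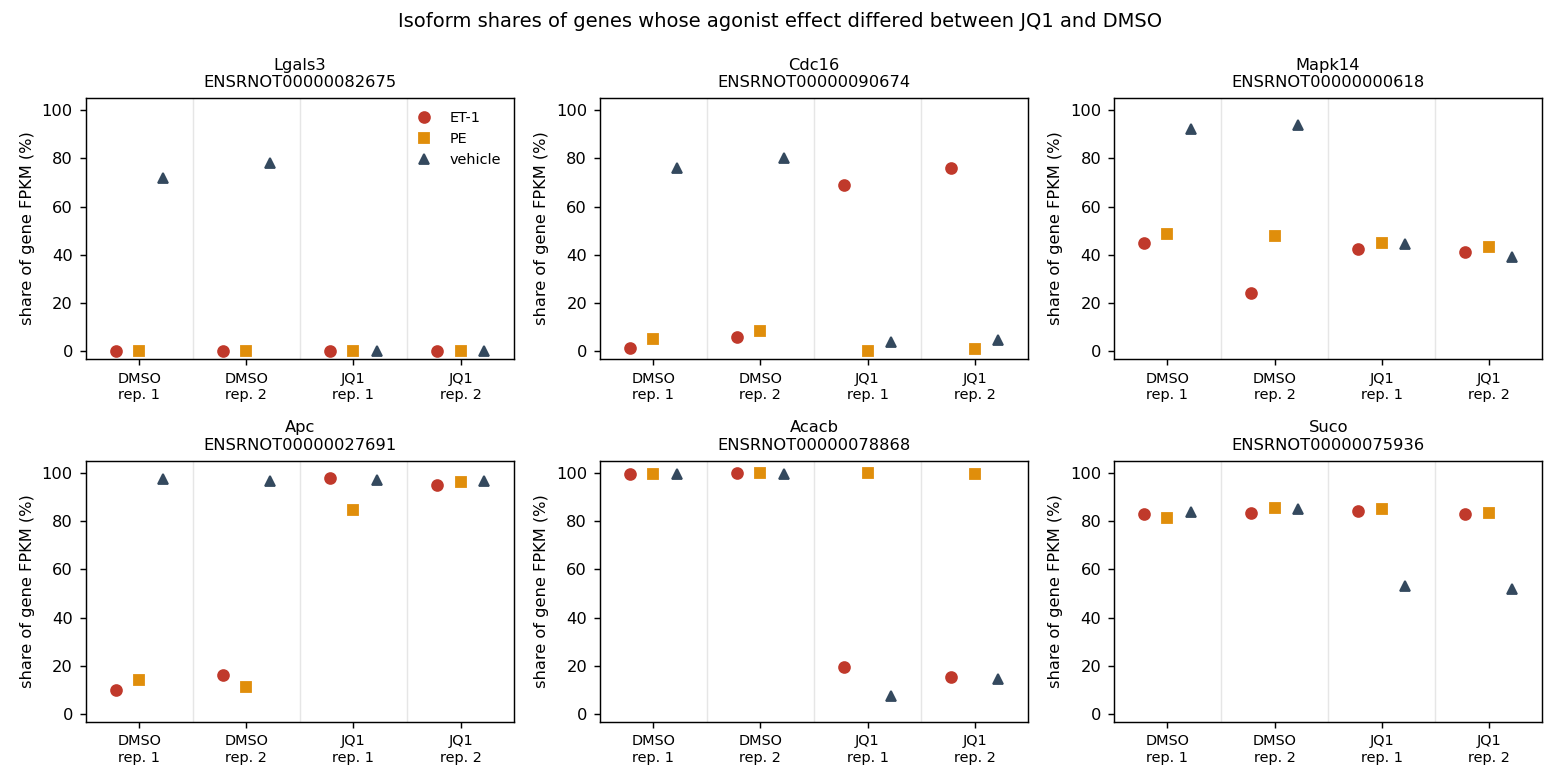
Share of 1 transcript in percent for 6 genes whose agonist effect differed between JQ1 and DMSO, with ET-1, PE and vehicle side by side in each stratum. In each gene 1 or 2 groups stand apart in both replicates, as for Lgals3 with vehicle in DMSO.

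The direction of a shift was compared between DMSO and JQ1 as a description. Of 222 genes with an unadjusted p under 0.05 in DMSO, 148 (66.7%) moved the same way in JQ1, against 57.1% of all tested genes. Of 205 chosen in JQ1, 119 (58.0%) moved the same way in DMSO, against 56.6%. The effects come from different libraries but from 1 fit.

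**Figure D5:**
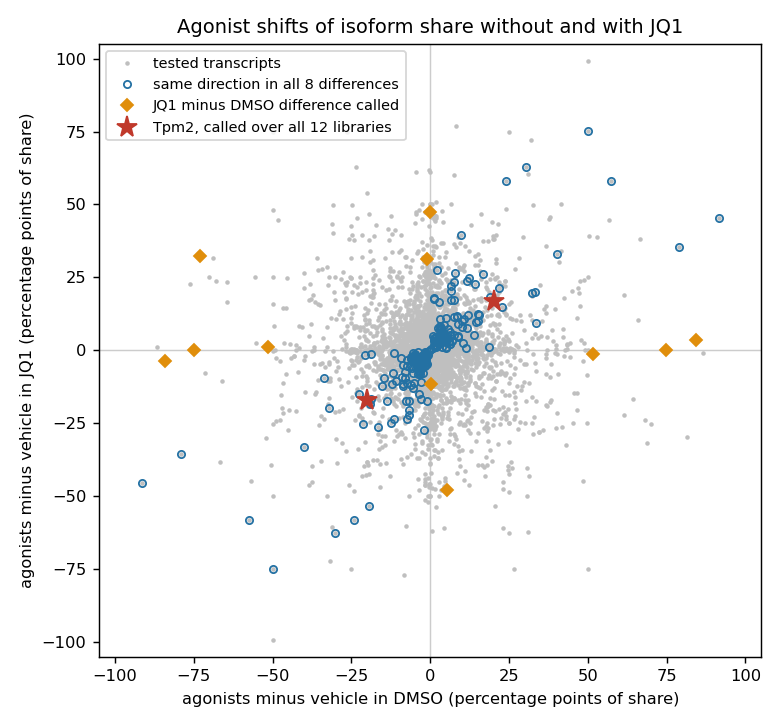
Shift of share, agonists minus vehicle, in percentage points in DMSO (horizontal) and in JQ1 (vertical) for every tested transcript. Tpm2 lies at 20.1 and 17.1 points (and its partner at the same distance below 0), while transcripts with a called difference lie near an axis or on opposite sides of 0.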

How the data were processed

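Column-purified, DNase-treated RNA of 12 libraries was depleted of ribosomal RNA and sequenced as stranded libraries, per the labels' protocols. The submitters' processing notes name StringTie 1.3.4d and STAR 2.7.1a, next to Trim Galore 0.6.0 and the build rn6. The deposited tables give each transcript's coverage (signal) and FPKM, per the file headers, and no counts were used. The sources used here do not give the strand setting, so overlapping, antisense and near-identical genes are uncertain.

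Each share is the FPKM of a transcript over the FPKM summed over all listed transcripts of its gene. The tested value was log2((FPKM + 0.5)/(summed FPKM of the others + 0.5)). Using R 4.3.3, limma 3.58.1 (variance moderation robust, with a trend on gene level) was fitted to all 12 libraries with 4 strata of second compound by replicate number. The comparisons within DMSO, within JQ1 and between them used 6 group means plus replicate number. P-values were adjusted by Benjamini-Hochberg over 5563 transcripts, at a threshold of 0.05. The fit was tested on simulated data. The exact permutation kept the strata.

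The block is in the fit because libraries are compared within replicate number. In the isoform values the numbers paired the samples weakly at most on average, since the correlation of deviations over 15 pairs of groups was -0.05 to 0.14, with 3 over 0.1. Depth was 2.341 to 2.965 Gb per library.

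Members, lists and tests were chosen with earlier results of these data known. Named genes were those called over all libraries, the called members of the lists, those with the largest called differences between JQ1 and DMSO, and a fixed list. Other named genes were chosen after their values were seen. Alternatives covered the block, the pseudocount, rescaling, short transcripts, filters, the share itself, gene-wise p-values and leaving out each library. The Tpm2 promoter window is from RefSeq (GRCr8), matched by symbol.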

Additional observations from a re-analysis of the deposited data

Results flagged for a closer look

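The effect of agonists in JQ1 minus that in DMSO was called in 8 genes by limma, and each value below is that difference in log2 ratio. It was 7.58 for Cdc16 ENSRNOT00000090674, 4.91 for Apc ENSRNOT00000027691, 7.06 for Lgals3 ENSRNOT00000082675 and 4.11 for Mapk14 ENSRNOT00000000618. It was 3.86 for Acacb ENSRNOT00000078868, 2.14 for Suco ENSRNOT00000075936, -3.21 for AABR07035437.1 ENSRNOT00000089775 and -2.24 for Top2b ENSRNOT00000075896. Cdc16 ENSRNOT00000090674 was at 69.1 and 76.0% with ET-1 and 0.0 and 0.967% with PE in JQ1, against 3.84 and 4.53% with vehicle. Acacb ENSRNOT00000078868 was at 19.7 and 15.2% with ET-1 and 100.0 and 99.5% with PE in JQ1, against 7.37 and 14.7% with vehicle. ET-1 thus lay near vehicle and PE far above both. Suco ENSRNOT00000075936 was at 83.1 to 84.8% with agonists in JQ1, against 53.0 and 51.8% with vehicle. Over the alternatives Cdc16 and Lgals3 kept their call under all 21 settings tried, while Apc lost it under 11, AABR07035437.1 under 10 of 20 and Mapk14 under 10. When single libraries were left out, Acacb kept its call only without either vehicle with JQ1 library. Suco kept it only without PE with DMSO replicate 2, and also lost it with gene-wise p-values. Top2b lost it without either PE with JQ1 library, among others.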

How the results depend on the processing

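Tpm2 kept its direction under every alternative, with an adjusted p of 0.00056 to 0.49, and lost its call under 6 of 24. Without the replicate block (the pairing by replicate number) its adjusted p was 0.49, and in that fit 2 genes were called for agonists against vehicle, Mlec and Nudt7. Over all tested transcripts the numbers paired the samples weakly at most, but at Tpm2 ENSRNOT00000022801 replicate 2 stood above replicate 1 in all 6 groups. The size of the shift is the same with and without the block by construction, since each group has both replicate numbers.

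For agonists against vehicle the count of called genes, 1, became 20 with 6 group means and the replicate block, 6 with genes of at least 5 FPKM, 70 with no filter on low values and 4 in replicate 2 libraries only. For ET-1, 1 became 2 at 5 FPKM, 5 with no filter, 2 with a pseudocount of 1 and 7 in replicate 2 libraries only. For PE, 0 became 4 with no filter, 1 in replicate 1 libraries only, 2 in replicate 2 libraries only and 1 with the share itself, which was Tpm2. For PE against ET-1, 0 became 3 in replicate 2 libraries only and 1 with the share itself, again Tpm2, and in DMSO 9 became 37 with no filter. Where the count stayed at 1 the gene was not always Tpm2. For ET-1 without the block it was Nudt7. In replicate 1 libraries only it was AABR07028989.1, for agonists and for ET-1. Fits within a replicate number were added after seeing the fibroblast markers.

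Leaving out each library in turn gave 0 to 6 genes for agonists, 1 to 6 for ET-1, 0 to 3 for PE and 0 to 2 for PE against ET-1. It gave 8 to 25 genes in DMSO, 9 to 23 in JQ1 and 4 to 20 for JQ1 against DMSO, a median length difference of -0.0007 to -0.00014, and 0 to 2 genes with another leading transcript. The cause of these changes was not tested. With 2 libraries per group, low genes carry few reads per transcript and their shares are least certain.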
